A study of Homo sapiens with 4 samples.

Results

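Mitochondrial ribosomal protein genes were described in polysome profiling of human breast cancer cells that carried METTL3 WT or METTL3 K177Q. The genes were chosen by symbol, as every gene named MRPL or MRPS followed by a number, with pseudogenes and read-through transcripts left out. This gave 78 of the 28198 genes in the table, spread over 21 chromosomes. Of these, 51 encode proteins of the large subunit of the mitochondrial ribosome and 26 proteins of the small subunit, with MRPS30 and MRPS18A counted in the large subunit, where they sit despite their names. The remaining gene, MRPS36 (also named KGD4), is now assigned to the 2-oxoglutarate dehydrogenase complex of the citric acid cycle and was kept because the rule is one of symbols. In a second division, 46 of the proteins were counted as having a homologue in bacterial ribosomes and 31 as particular to mitochondria. Of the paralogs MRPS18A, MRPS18B and MRPS18C, the last was counted with the former class and the others with the latter.

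The mitochondrial ribosome makes the respiratory chain proteins that mitochondrial DNA encodes. Its RNAs are made inside the organelle, but all of its proteins are encoded in the nucleus, made by cytosolic ribosomes and imported. Polysome profiling of cytoplasmic extracts therefore reads how the mRNAs of these proteins are loaded with cytosolic ribosomes, and carries no measurement of translation inside mitochondria.

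METTL3 is the catalytic subunit of the complex that writes N6-methyladenosine on mRNA, and K177Q replaces a lysine with glutamine, which resembles an acetylated lysine. MDA-MB-231, a line from a human breast cancer, had been depleted of METTL3 and then given METTL3 WT or METTL3 K177Q from a lentiviral vector, so that both groups lacked most of their own METTL3 and differed in the protein put back. Ribosomes were held on their mRNAs with cycloheximide, and lysates were separated on a sucrose gradient into polysomes and a lighter, sub-polysome part with free subunits and single ribosomes. Polyadenylated RNA from these gradient pools gave 4 libraries, 1 per condition, all labelled replicate 2. No value below therefore has a replicate error, no difference was tested, and every comparison is between these libraries.

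Expression was given in FPKM, which divides a gene's fragments by its transcript length and by the size of the library, so levels can be compared between genes per length. For METTL3 WT cells the FPKM of all genes added up to 899550 (sub-polysome) and 818984 (polysome), and for METTL3 K177Q cells to 1037594 and 767949. Depth is known only roughly: the lowest values in the table correspond to about 26800000, 26100000, 24200000 and 25800000 fragments in the same order, if the lowest cluster stands for 1 fragment. The METTL3 gene itself was at 9.39 and 38.7 FPKM in sub-polysome and polysome RNA of METTL3 WT cells, and at 5.07 and 29.5 FPKM in METTL3 K177Q cells. It was present in both genotypes and lower in both METTL3 K177Q libraries, and FPKM cannot show which allele was read. Markers of the line were read as well. The mesenchymal gene VIM was between 677 and 1540.0 FPKM, and CD44, AXL and CAV1 were at least 88.6 FPKM in every library. Of the hormone receptor genes and the cadherin gene that this line is known to lack, ESR1 and PGR were at most 0.0119 FPKM and CDH1 at most 0.632 FPKM. ERBB2 was between 12.2 and 28.3 FPKM and the epithelial gene EPCAM between 6.2 and 9.91 FPKM.

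The mitochondrial ribosomal protein mRNAs were well expressed in all 4 libraries. None was listed at 0, and all 78 passed the filter of a mean of at least 1 FPKM that left 10905 genes. Their median FPKM was 54.7 in sub-polysome and 83.7 in polysome RNA of METTL3 WT cells, and 54.2 and 78.7 in METTL3 K177Q cells. Both polysome medians lay above both sub-polysome medians. Between genotypes, bulk RNA such as this cannot tell apart fewer cells with a transcript and less of it per cell. As a share of all FPKM, the 78 genes took 1.05%, 1.3%, 0.999% and 1.2% of the 4 libraries in that order. Over the 4 libraries, the median of their mean FPKM was 65.9, against 9.67 for all genes tested, 266 for nuclear-encoded respiratory chain subunits and 1450.0 for cytosolic ribosomal proteins. The genes whose products meet in the same ribosome were not equally abundant: 31 had a mean of at least 100.0 FPKM, 11 had less than 20 FPKM, and the highest was 112 times the lowest.

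MRPL41, a large-subunit protein particular to mitochondria, was the most abundant, with 918 FPKM in METTL3 WT sub-polysome, 766 in METTL3 WT polysome, 984 in METTL3 K177Q sub-polysome and 613 in METTL3 K177Q polysome RNA. MRPS24 followed at 739, 720, 764 and 623 FPKM in the same order. Both had their lowest value in the METTL3 K177Q polysome library. The exons of MRPS24 are shared over 606 nt, or 90.9% of its transcript, with the read-through gene URGCP-MRPS24, so reads of the 2 cannot be told apart there. The read-through gene was listed between 0.483 and 4.8 FPKM, and adding it to MRPS24 left the translation efficiency ratio at -0.25 against -0.26 for MRPS24 alone. At the other end stood MRPL42 (9.28, 6.14, 8.77 and 5.07 FPKM), MRPL19 (6.20, 10.7, 4.29 and 9.06 FPKM) and MRPS33 (7.31, 7.96, 7.78 and 7.33 FPKM). These low genes are among those with the largest counting error.

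The first question was where these mRNAs sat on the gradient in METTL3 WT cells. Ratios are given as log2 values after 0.1 was added to every FPKM. The median polysome to sub-polysome ratio of the 78 genes was 0.54, a 1.45-fold polysome excess, and that of all genes tested was 0.14. At least 1.5-fold higher in polysomes were 38 members, or 48.7%, against 28.1% of all genes tested. At least 1.5-fold lower were 5 members, or 6.41%, against 19.1%. The median was 0.53 for the large subunit and 0.64 for the small subunit, where the 10 proteins particular to mitochondria had a median of 0.75 and all lay above 0. In METTL3 K177Q cells the median ratio of the 78 genes was 0.37, a 1.29-fold excess, against 0.16 for all genes, with 31 members (39.7%) at least 1.5-fold higher, against 30.2% of all genes, and 8 (10.3%) at least 1.5-fold lower, against 21.3%. In TPM the medians were 0.67 in METTL3 WT and 0.80 in METTL3 K177Q cells, beside 0.28 and 0.59 for all genes, so the order of the genotypes turned.

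The members differed from each other far more than these medians differ. MRPL39, a protein resembling a threonyl-tRNA synthetase, had the highest ratio in METTL3 WT cells, with 16.2 FPKM in sub-polysome and 61.2 FPKM in polysome RNA, a 3.76-fold excess. It was also 2.84-fold in METTL3 K177Q cells, at 19.6 and 55.9 FPKM. MRPL22, which lies along the exit tunnel, had 13.2 and 40.0 FPKM in METTL3 WT and 15.2 and 38.1 FPKM in METTL3 K177Q cells. MRPL44, which resembles an RNase III, MRPS14, a small-subunit core protein, and MRPS23 completed the 5 highest, at log2 ratios of 1.55, 1.44 and 1.39 in METTL3 WT cells. All 5 were at least 2.26-fold higher in polysomes in both genotypes.

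The opposite pattern was seen for the 5 lowest. MRPL33, the shortest of the 78 proteins at 65 codons, had 743 FPKM in sub-polysome and 304 FPKM in polysome RNA of METTL3 WT cells, so that its polysome level was 0.409 of its sub-polysome level. In METTL3 K177Q cells it had 1099.9 and 247 FPKM, or 0.225. MRPL53 had 477 and 263 FPKM in METTL3 WT and 542 and 246 FPKM in METTL3 K177Q cells. MRPS10, a small-subunit protein, had 131 and 82.1 FPKM in METTL3 WT and 127 and 83.4 FPKM in METTL3 K177Q cells, with nearly the same log2 ratio in both, -0.68 and -0.61. MRPL34 and MRPL42 followed at -0.60 and -0.59 in METTL3 WT and -0.78 each in METTL3 K177Q cells. Across the 78 genes the ratios of the 2 genotypes, which come from separate libraries, went together with a Spearman rho of 0.951.

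**Figure D1:**
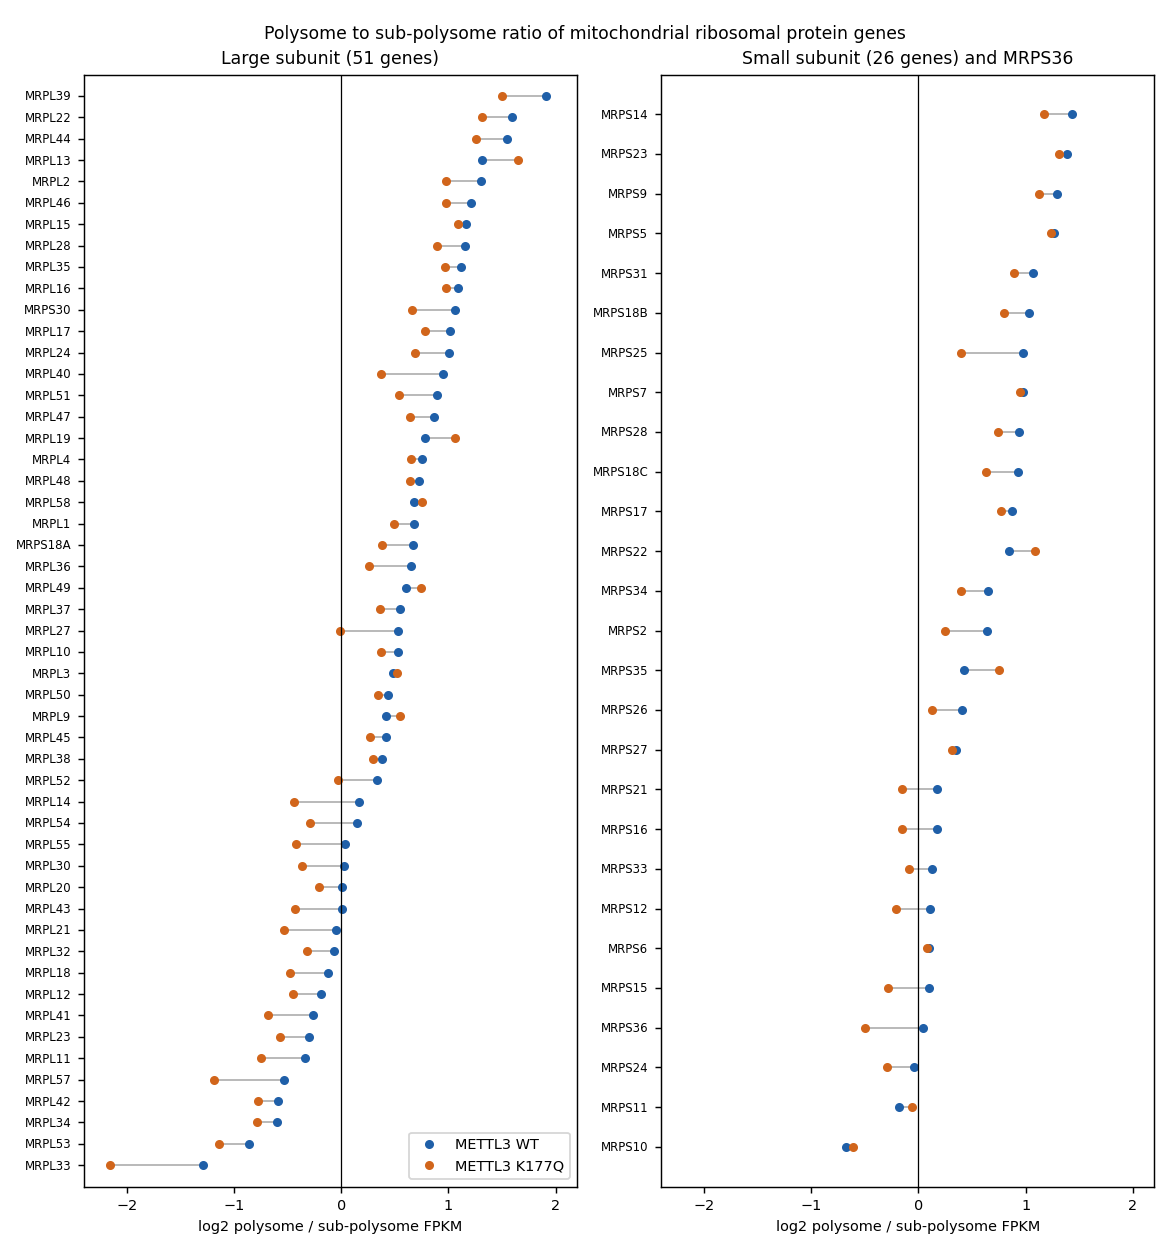
Each row is 1 gene and the x axis is its log2 polysome to sub-polysome FPKM ratio, in METTL3 WT (blue) and METTL3 K177Q (orange) cells, with 1 library per condition and the genes of each panel sorted by the METTL3 WT ratio. The order of the genes was similar in the 2 genotypes, and the orange point lay to the left of the blue one for 68 of the 78 genes as deposited (27 in TPM).

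The second question was whether translation efficiency, the polysome to sub-polysome ratio, differed between the genotypes. The median log2 translation efficiency ratio of METTL3 K177Q to METTL3 WT was -0.25 over the 78 genes, or 0.842-fold, against -0.01 over all genes tested, and 68 of the 78 lay below 0 as well as below the all-gene median. The sign depends on how the libraries are scaled: after rescaling each library to the same total FPKM (TPM), the members' median was 0.05, 27 lay below 0, and the median of all genes was 0.29. Relative to all genes the members' median was -0.24 and 68 members lay below the all-gene median, a position that no rescaling of whole libraries can change, as it adds the same amount to every gene's ratio. It does depend on which genes are compared: with a minimum mean of 10 FPKM the medians were -0.25 for members and -0.08 for all genes. At least 1.5-fold lower were 3 members (3.85%), MRPL33, MRPL57 and MRPL14, against 7.03% of all genes, and at least 1.5-fold higher was none, against 4.08%, so the share past that size was below the background in both directions. These calls also depend on the scaling: in TPM none of the 3 was past 1.5-fold and MRPL13 and MRPS35 were higher by that size, without cytosolic ribosomal protein genes MRPL33 alone was lower, and with size factors MRPL40 and MRPS25 joined the 3. Of all genes tested, 18.6% were higher and 2.83% lower by that size in TPM, 14.0% and 3.03% without cytosolic ribosomal protein genes, and 3.72% and 7.42% with size factors.

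Counting error was estimated from the approximate fragment numbers over the coding sequence alone, which overstates it. It was a median of 0.087 on the log2 scale, between 0.03 for MRPS24 and 0.367 for MRPS33, and it covers counting error only. By it, 45 members lay more than 2 standard errors from 0, of which 42 were below and 3 (MRPL13, MRPS35 and MRPS22) above. In TPM, with the same errors, 10 were below and 18 above, and with size factors 44 and 3. Without cytosolic ribosomal protein genes, 14 were below and 14 above. Of 10283 mRNAs above 0 in all libraries, whose median counting error was larger at 0.152, 21.0% lay below and 16.2% above by 2 standard errors as deposited, against 53.8% and 3.85% of the members, and 5.65% and 46.8% did in TPM. Of such mRNAs, 22.3% lay below and 14.7% above with size factors, and 7.19% and 40.3% without cytosolic ribosomal protein genes. How much 2 preparations of the same cells would differ was not measured here.

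Lower ratios as deposited were found in both subunits and in both classes of protein. The median ratio was -0.27 for the large subunit, where 45 of 51 genes lay below 0, and -0.20 for the small subunit, where 22 of 26 did. It was -0.25 for the proteins with a bacterial homologue (40 of 46 below 0) and -0.23 for those particular to mitochondria (27 of 31). In TPM these medians were 0.03, 0.10, 0.05 and 0.06 in the same order. On the deposited scale the 3 genes lower by at least 1.5-fold were of the large subunit, 5.88% of its genes, against 7.03% of all genes tested. With size factors, 4 of 51 large-subunit and 1 of 26 small-subunit genes were lower by that size, against 7.42% of all genes tested.

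MRPL33 had the lowest ratio, -0.86, or 1.82-fold lower in METTL3 K177Q cells, and a counting error of 0.063. Its 4 values, 743, 304, 1099.9 and 247 FPKM, show a higher sub-polysome level in METTL3 K177Q cells beside a lower polysome level. The gene lies on chromosome 2 from 27771719 to 27779733, plus strand, in GENCODE 44 on GRCh38. MRPL57 (also MRP63), a large-subunit protein of 102 codons on chromosome 13 from 21176658 to 21179084, plus strand, had 49.5 and 34.2 FPKM in METTL3 WT and 59.2 and 25.9 FPKM in METTL3 K177Q cells, a ratio of -0.65 with a counting error of 0.167. RefSeq lists 8 pseudogenes named after MRPL57, so its reads may be split. MRPL14, which lies at the interface between the subunits and is bound by the anti-association factor MALSU1, had 562 and 630.5 FPKM in METTL3 WT and 661 and 488 FPKM in METTL3 K177Q cells. Its polysome level was 1.12 times its sub-polysome level in METTL3 WT and 0.739 times in METTL3 K177Q cells, a translation efficiency ratio of -0.60.

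Next in order came MRPS25, MRPL40, MRPL27, MRPS36 and MRPL21, at -0.58, -0.57, -0.54, -0.54 and -0.48. MRPS25 was low throughout, at 6.30 and 12.5 FPKM in METTL3 WT and 7.16 and 9.43 FPKM in METTL3 K177Q cells, with a counting error of 0.275. MRPL40 had 35.5 and 68.4 FPKM in METTL3 WT and 45.3 and 58.6 FPKM in METTL3 K177Q cells. MRPL27, which reaches towards the peptidyl transferase centre, had 159 and 229 FPKM in METTL3 WT cells but nearly equal levels, 192 and 191 FPKM, in METTL3 K177Q cells. MRPS36, the dehydrogenase subunit, had 39.6, 40.7, 47.7 and 33.7 FPKM in the order used above, and leaving it out gave a median of -0.25 for the other 77 genes. Like the 3 genes before them, these 5 had a higher sub-polysome and a lower polysome value in METTL3 K177Q than in METTL3 WT cells.

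Of the 78 genes, 10 had a ratio above 0. MRPL13, a core protein of the large subunit, was the highest at 0.33, with 33.2 and 83.0 FPKM in METTL3 WT and 24.2 and 75.9 FPKM in METTL3 K177Q cells. MRPS35, particular to the mitochondrial small subunit, followed at 0.32, with 24.3 and 32.7 FPKM in METTL3 WT and 19.6 and 33.1 FPKM in METTL3 K177Q cells. MRPL19 was at 0.28, with a counting error of 0.236, and MRPS22, another small-subunit protein particular to mitochondria, was at 0.24, with 34.2, 61.6, 28.2 and 59.8 FPKM. In all 4 of these the sub-polysome value was lower in METTL3 K177Q than in METTL3 WT cells, while the polysome value differed less. MRPL49, MRPL9, MRPS11 and MRPL58 lay between 0.14 and 0.07, MRPS10 at 0.07 and MRPL3 at 0.03.

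**Figure D2:**
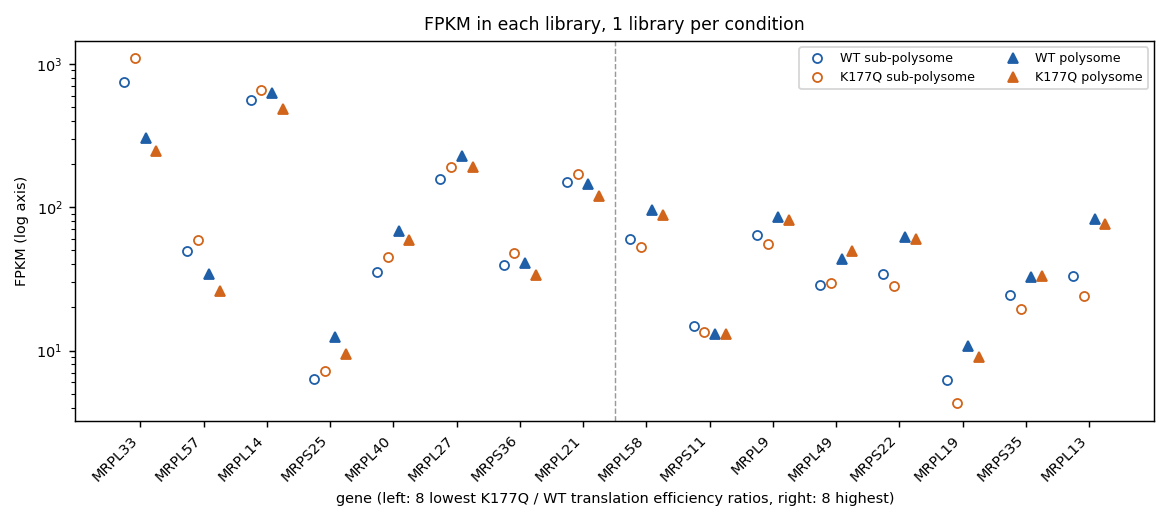
FPKM on a log axis for the 8 genes with the lowest (left of the dashed line) and the 8 with the highest (right) METTL3 K177Q to METTL3 WT translation efficiency ratio, with circles for sub-polysome and triangles for polysome libraries, blue for METTL3 WT and orange for METTL3 K177Q, 1 library each. In MRPL33 the triangles lie below the circles and the orange pair is further apart than the blue pair, and in MRPL13 the triangles lie above the circles.

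The genes of known sites in the ribosome were spread over this range. Of the stalk that recruits elongation factors, MRPL12 had 567, 498, 527 and 387 FPKM (METTL3 WT sub-polysome, METTL3 WT polysome, METTL3 K177Q sub-polysome, METTL3 K177Q polysome) and a ratio of -0.26, and MRPL10, which anchors it, had 19.5, 28.3, 21.6 and 27.9 FPKM and a ratio of -0.16. MRPL11 at the base of that stalk was at -0.42, and MRPL1, of the stalk at the tRNA exit site, at -0.19. At the core of the large subunit, MRPL2 was at -0.33, with 124 and 306 FPKM in METTL3 WT and 157 and 309 FPKM in METTL3 K177Q cells, so that its polysome level was nearly the same in both genotypes. MRPL3 and MRPL4 were at 0.03 and -0.10. No difference between genes of the same site was tested.

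At the exit tunnel, MRPL23 was at -0.28 and MRPL45, which holds the ribosome to the inner membrane, at -0.15. MRPL32, whose precursor is cut by the protease of AFG3L2 and SPG7 before it enters the ribosome, was at -0.25, with 113, 108, 110.0 and 88.2 FPKM. MRPL58 (ICT1), a peptidyl-tRNA hydrolase that is also a ribosomal protein, was at 0.07, with 59.6, 95.5, 52.7 and 88.7 FPKM. These values lay within the range of the members as a whole.

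Of the small subunit, MRPS12, at the decoding centre, was at -0.32, with 163, 176, 151 and 130.04 FPKM, and its polysome level differed between genotypes by -0.44 on the log2 scale. MRPS2 was at -0.39 and MRPS7 at -0.02, with 54.8, 107, 47.7 and 92.3 FPKM for MRPS7, which was lower in both fractions of METTL3 K177Q cells by about the same amount. MRPS27, a pentatricopeptide repeat protein, was at -0.03. The paralogs MRPS18A, MRPS18B and MRPS18C, of which the first sits in the large subunit and the others in the small one, were at -0.29, -0.23 and -0.30, and MRPS30 was at -0.40. RefSeq lists 6 pseudogenes named after MRPS18C, against 1 for MRPS18A and 2 for MRPS18B, so its reads may be split. It also lists 6 each for MRPS36 and MRPL42 and 4 for MRPS33, whose reads may be split too.

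The ratio could differ through either fraction, and both were compared between genotypes. In polysome RNA, the median log2 METTL3 K177Q to METTL3 WT ratio of the 78 genes was -0.18, against -0.02 for all genes tested. Below 0 lay 69 members (88.5%), against 53.7% of all genes tested. No member was past 1.5-fold, where 2.13% of all genes were higher and 3.13% lower. In sub-polysome RNA, the median was 0.09, against 0.00 for all genes. Above 0 lay 51 members, against 5392 of the 10905 genes tested. Again no member was past 1.5-fold, where 4.01% of all genes were higher and 2.94% lower. In TPM the polysome median was -0.08 with 57 genes below 0, while the sub-polysome median turned to -0.12 with 16 genes above 0 and 62 below, beside 0.07 and -0.21 for all genes, since the METTL3 K177Q sub-polysome library has the largest FPKM total. As deposited, 44 genes were lower in polysomes and higher in sub-polysomes of METTL3 K177Q cells, 25 were lower in both, 7 were higher in both, and MRPS10 and MRPS35 were higher in polysomes and lower in sub-polysomes. In TPM, 11 were lower in polysomes and higher in sub-polysomes and 46 were lower in both, and without cytosolic ribosomal protein genes these numbers were 14 and 53. Of all genes tested, 23.9% were lower in polysomes and higher in sub-polysomes as deposited, against 56.4% of the members, and 29.8% were lower in both, against 32.1%. In TPM these all-gene shares were 7.77% and 31.3%, and without cytosolic ribosomal protein genes 8.91% and 38.5%.

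**Figure D3:**
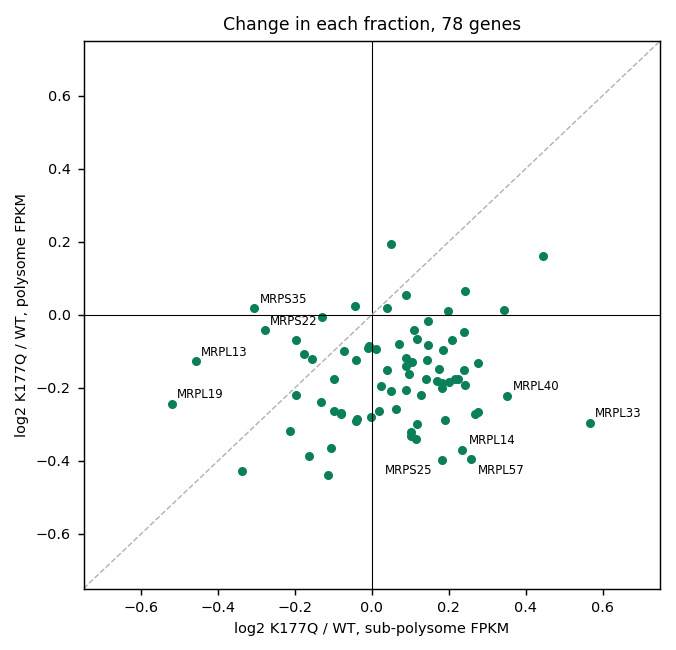
Each point is 1 of the 78 genes, plotted by its log2 METTL3 K177Q to METTL3 WT ratio in sub-polysome RNA (x axis) and in polysome RNA (y axis), as deposited, and points below the dashed line of equality have a lower translation efficiency in METTL3 K177Q cells. Of the points, 44 of 78 (56.4%, against 23.9% of all genes tested) lie to the lower right of the 2 zero lines (11 in TPM), and MRPL33 is the point furthest to the right.

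The position of the genes on the gradient crossed over in some cases. As deposited, 49 genes had more FPKM in the polysome than in the sub-polysome library in both genotypes, 15 had less in both, 14 had more in METTL3 WT and less in METTL3 K177Q cells, and 0 had the reverse. Of all genes tested, 6.18% had more in METTL3 WT and less in METTL3 K177Q cells, against 17.9% of the members, and 6.09% had the reverse. The 14 included MRPL14, MRPL27, MRPS36, MRPS12 and MRPS33. In TPM, the number with more in METTL3 WT and less in METTL3 K177Q cells was 4 (5.13%), against 2.15% of all genes tested, and 1 member (1.28%) had the reverse, against 12.2%.

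The members were then set beside gene groups whose products are made in the same way. Nuclear-encoded respiratory chain subunits, which join the proteins that mitochondrial ribosomes make, had a median translation efficiency ratio of -0.37 over 77 genes, with 0 at least 1.5-fold higher and 14 (18.2%) lower. Their list was drawn by gene symbol, so it includes genes of ATP synthase and may hold genes that are not subunits. Cytosolic ribosomal proteins had a median of -0.63 over 84 genes, with 1 higher and 54 (64.3%) lower. The higher one, RPL21, was near the filter minimum. It had 2.71 and 0.942 FPKM in sub-polysome and polysome RNA of METTL3 WT cells, and 2.77 and 1.74 FPKM in METTL3 K177Q cells. Of all genes tested, 4.08% were higher and 7.03% lower. In TPM, 0 respiratory chain genes and 6 cytosolic ribosomal protein genes were lower by that size, against 2.83% of all genes tested. As deposited, the mitochondrial ribosomal proteins thus lay between these groups and all genes, and relative to the all-gene median the 3 groups stood at -0.24, -0.36 and -0.62, differences that rescaling a whole library leaves as they are. That order is not matched for coding length. Below 450 nt the medians were -0.33 for members and -0.42 for respiratory chain genes. They were -0.25 and -0.31 from 450 to below 750 nt, and -0.16 and -0.14 from 750 to below 1500 nt, where the order turned. In METTL3 WT cells the groups also started from different places: the median polysome to sub-polysome ratio was 0.54 for the mitochondrial ribosomal proteins, 0.31 for the respiratory chain subunits and -0.51 for the cytosolic ribosomal proteins. Coding length differed between the groups: 45 respiratory chain genes had a coding sequence below 450 nt, against 23 members. In that class the METTL3 WT medians were 0.12 for members and -0.10 for respiratory chain genes. From 450 to below 750 nt they were 0.63 and 0.71, and from 750 to below 1500 nt 0.85 and 1.18, so the order turned. With cytosolic ribosomal protein genes left out and the rest brought to equal totals, the members' median was -0.01 and that of all genes 0.23.

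**Figure D4:**
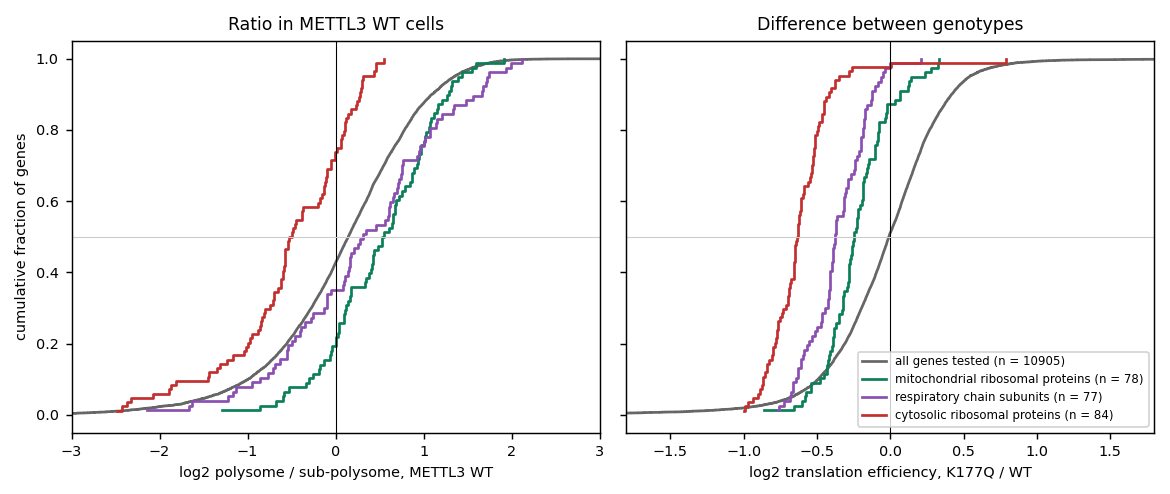
Cumulative fraction of genes (y axis) by log2 polysome to sub-polysome ratio in METTL3 WT cells (left) and by log2 translation efficiency ratio of METTL3 K177Q to METTL3 WT (right), for all 10905 genes tested, the 78 mitochondrial ribosomal protein genes, 77 respiratory chain subunits and 84 cytosolic ribosomal protein genes. The mitochondrial ribosomal proteins lie furthest right of the 4 curves at their medians on the left (median 0.54) and between all genes and the respiratory chain subunits on the right (median -0.25). The groups are not matched for coding length.

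Cytosolic ribosomal protein mRNAs are known for the 5′ terminal oligopyrimidine (TOP) tract, a C at the first base followed by a run of pyrimidines, through which their translation is controlled. Whether the mitochondrial ribosomal protein genes carry such a start was read from the annotated starts in RefSeq, which were found for 69 of the 78 genes. A start of C followed by at least 4 pyrimidines, spelled C then C or T at each of the next 4 bases on the gene's strand, was present in 5 of 69 members (7.25%), in 44 of 67 cytosolic ribosomal protein genes (65.7%), in 9 of 61 respiratory chain genes (14.8%) and in 485 of 8754 of all genes tested (5.54%). It was present in 4.04% of all 27305 promoters in the table. The windows below run from 15 bases before the annotated start, so that base 16 is the first base of the transcript, and capitals mark a run of pyrimidines that begins there with C. First, the 3 genes with the lowest ratios (MRPL33 at chr2:27771704-27771733, plus strand, MRPL57 at chr13:21176643-21176672, plus strand, and MRPL14 at chr6:44127294-44127323, minus strand) and 2 of the highest (MRPS35 at chr12:27710817-27710846, plus strand, and MRPS22 at chr3:139343979-139344008, plus strand), all from RefSeq on GRCh38.p14, show no such run.
MRPL33: ccgtgccccggaagcagttgttgttggttg
MRPL57: ccgcgagacgggtgcgcttacgccacggcg
MRPL14: gggcgttaagtcctcattccctccttctcc
MRPS35: cccctccggcttgccgtcctcgcagccatg
MRPS22: ctcggaatccctcccaaccacttccggcgc

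The 5 members with the run are shown for comparison with cytosolic ribosomal protein genes: MRPL44 at chr2:223957448-223957477, plus strand, MRPL53 at chr2:74472666-74472695, minus strand, MRPS33 at chr7:141014938-141014967, minus strand, MRPL45 at chr17:38297153-38297182, plus strand, and MRPS27 at chr5:72320226-72320255, minus strand. RPS21 at chr20:62387088-62387117, plus strand, RPS18 at chr6:33272060-33272089, plus strand, and RPL35 at chr9:124861943-124861972, minus strand, are abundant cytosolic ribosomal protein genes.
MRPL44: gtcttccatcgttttCTCTCgtgcaatggc
MRPL53: ccgcctgcacgagttCTTCCggggcggagg
MRPS33: gggtagagggcgggcCTTCCgggacgaggg
MRPL45: ctcccttcccggcggCCTTTgcgggaacaa
MRPS27: aacccgttggctgttCCTTTTggtacgctc
RPS21: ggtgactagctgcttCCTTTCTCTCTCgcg
RPS18: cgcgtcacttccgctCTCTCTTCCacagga
RPL35: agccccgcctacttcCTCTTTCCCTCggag

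The runs of the members were 5 or 6 bases long and those of the 3 cytosolic genes between 9 and 12. The translation efficiency ratios of the 5 members with the run, MRPL44 (-0.28), MRPL53 (-0.28), MRPS33 (-0.21), MRPL45 (-0.15) and MRPS27 (-0.03), lay among those of the other members, and the 3 members with the lowest ratios had none. Annotated starts need not be the ones used in these cells: for 63 of 69 members the RefSeq start equalled that of the GENCODE 44 canonical transcript, and MRPL14 and MRPS22 are among the 6 for which it did not.

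The members' ratios also differed with coding length. The 78 proteins have between 65 and 439 codons, with a median of 195. Among the 23 genes with a coding sequence below 450 nt, the median log2 polysome to sub-polysome ratio was 0.12 in METTL3 WT and -0.21 in METTL3 K177Q cells. It was 0.63 and 0.38 for the 28 genes from 450 to below 750 nt, and 0.85 and 0.75 for the 27 genes from 750 nt. FPKM is relative to each library, so a ratio of 0 does not stand for equal amounts of RNA in the 2 fractions. In TPM the medians were 0.26 and 0.22 in the shortest class, 0.76 and 0.81 in the next and 0.98 and 1.18 in the longest. The median translation efficiency ratio went the same way, from -0.33 in the shortest class, where 23 of 23 genes lay below 0 and 3 (13.0%) were at least 1.5-fold lower, to -0.25 (23 of 28 below 0) and -0.16 (22 of 27). Of all mRNAs tested with a coding sequence below 450 nt, 83.5% lay below 0 and 19.9% were at least 1.5-fold lower, and 72.2% and 58.4% lay below 0 in the next classes. In TPM, 14 of the 23 short members lay below 0 and 0 were past 1.5-fold, and the medians of the 3 classes were -0.03, 0.05 and 0.13. For all mRNAs in TPM, 52.9% of those below 450 nt lay below 0, 6.8% were at least 1.5-fold lower, and the class medians were -0.02, 0.10 and 0.24.

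On the deposited scale the same order was seen over all mRNAs tested, with 10290 coding lengths. Their median translation efficiency ratio was -0.32 below 450 nt, -0.19 from 450 to 750 nt, -0.06 from 750 to 1500 nt and 0.15 from 1500 nt, a class with 0 members. Set against mRNAs of their own length, the members were close in the shortest class (-0.33 and -0.32), and somewhat lower in the other classes (-0.25 and -0.19, -0.16 and -0.06). Their polysome to sub-polysome ratios in METTL3 WT cells were higher than those of all mRNAs tested in each class, 0.12 against -0.51, 0.63 against 0.03, and 0.85 against 0.23. This was not particular to the members: respiratory chain genes stood at -0.10, 0.71 and 1.18 in the same classes. Cytosolic ribosomal proteins below 450 nt had a median translation efficiency ratio of -0.71 over 42 genes. Across the 78 members, Spearman's rho with coding length was 0.494 for the METTL3 WT ratio, 0.564 for the METTL3 K177Q ratio and 0.414 for the translation efficiency ratio, and over 10290 mRNAs it was 0.226, 0.387 and 0.461. With mean FPKM, rho was -0.387, -0.443 and -0.347 in the same order across the members, and 0.11, -0.009 and -0.316 over the mRNAs. The members were more abundant than most genes, and their values were not matched to all genes for abundance. These are correlations across genes that share the same 4 libraries, and genes are not independent replicates.

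**Figure D5:**
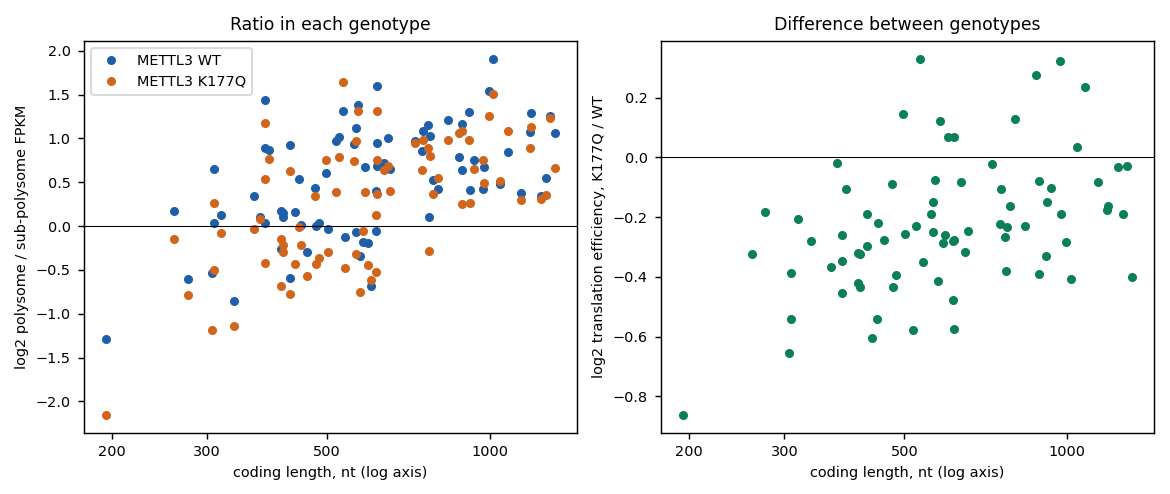
Coding length in nt on a log axis against the log2 polysome to sub-polysome FPKM ratio in METTL3 WT (blue) and METTL3 K177Q (orange) cells (left), and against the log2 translation efficiency ratio of METTL3 K177Q to METTL3 WT (right), for 78 genes. The shortest gene, MRPL33, is the lowest point in both panels, and every gene below 450 nt lies below 0 on the right, as deposited (14 of 23 in TPM).

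Genes that work with the mitochondrial ribosome were described from lists of known function. On the deposited scale, where 4.08% of all genes tested were at least 1.5-fold higher and 7.03% lower, the 5 mitochondrial ribosomal proteins that carry other symbols had a median translation efficiency ratio of -0.23, with 0 past 1.5-fold in either direction and 4 below 0. DAP3, a GTP-binding protein of the small subunit, had 43.0, 84.0, 41.1 and 75.4 FPKM and a ratio of -0.09. AURKAIP1 was the lowest at -0.35, with 678, 705, 773 and 632 FPKM, and PTCD3, a pentatricopeptide repeat protein, the highest at 0.04. These 5 lay in the range of the members.

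Of 11 mitochondrial translation factors, 10 were tested and MTRFR was not found. Their median ratio was -0.09, with 0 past 1.5-fold in either direction as deposited and GFM1 higher by that size in TPM and without cytosolic ribosomal protein genes, where 18.6% and 14.0% of all genes tested were. GFM1, an elongation factor that moves the ribosome along the mRNA, was the highest at 0.42, with 3.84, 4.26, 2.51 and 3.77 FPKM, and MTFMT, which formylates the initiator methionyl-tRNA, the lowest at -0.47, with 1.68, 2.88, 1.74 and 2.13 FPKM. TUFM, the elongation factor that delivers tRNAs, was far more abundant, with 124, 258, 125 and 249.6 FPKM, and had a ratio of -0.06. The other factors were at most 28.6 FPKM in every library.

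Of 24 assembly and ribosomal RNA factors, which had a median of -0.16, 1 was lower and 0 were higher by 1.5-fold or more, and in TPM MTERF3 was higher by that size too, as were 18.6% of all genes tested. The lower one was MTERF4, which brings the methyltransferase NSUN4 to the large subunit, at -1.19, with 2.76 and 8.94 FPKM in METTL3 WT and 4.04 and 5.65 FPKM in METTL3 K177Q cells. NSUN4 itself was at -0.26, and MTERF3, of the same family as MTERF4, was the highest at 0.30. MALSU1, the factor that binds MRPL14, was at -0.37, with 16.8, 35.6, 18.1 and 29.7 FPKM. Of 8 mRNA regulators and proteases, 0 were past 1.5-fold in either direction and the median was 0.04, from OXA1L, the inner membrane insertase at which the ribosome docks, at -0.39 (24.7, 43.8, 33.7 and 45.7 FPKM) to SPG7 at 0.23 (10.0, 16.8, 8.26 and 16.3 FPKM). In TPM, the medians of these 4 lists were 0.07, 0.21, 0.13 and 0.33 in the order given, beside 0.29 for all genes.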

How the data were processed

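Polyadenylated RNA from polysomes and sub-polysomes of both METTL3 genotypes was compared between 4 libraries, 1 per condition. The authors deposited 1 table of FPKM per gene, which was used as deposited and holds no read numbers. The submitters' processing notes name STAR 2.7, StringTie 2.1.5 and hg38, while the annotation and settings are not given in the sources used here. A further 4 value columns in the table could not be tied to a sample by the labels and were not used, so replicates other than 2 were not analysed here and variation between replicates was not estimated. The paper refers to replicates of this assay, so these columns may hold another replicate of each condition. Groups came from the sample labels.

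Ratios were log2 of FPKM plus 0.1, for genes averaging 1 FPKM or more over the 4 libraries, and a gene was called higher or lower at 1.5-fold, the size used in the study. Translation efficiency was polysome over sub-polysome FPKM. With 1 library per condition no test was made. The calculation was tested on simulated data. Alternatives were pseudocounts of 0.01 and 1, no filter or a minimum mean of 10 FPKM, a 2-fold threshold, TPM, median-of-ratios size factors, and equal totals without cytosolic ribosomal protein genes. Centring on the all-gene median, leaving out MRPS36 and the classes of coding length were chosen after seeing the data.

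The members and gene lists were chosen with earlier results of these data known. Named genes were METTL3, the 8 highest and 8 lowest members by translation efficiency ratio, the 5 highest and 5 lowest by METTL3 WT ratio, the 3 most and 3 least abundant, members of known roles, and the highest and lowest gene of each companion list. DAP3, TUFM, NSUN4, MALSU1, RPS21, RPS18 and RPL35 and the cell line markers fall outside that rule and were chosen after values were seen. Gene models were the canonical transcripts of GENCODE 44 on GRCh38, and start windows those of RefSeq on GRCh38.p14. Calculations were run in Python (3.11.15), with numpy (2.4.6), pandas (2.3.3) and scipy (1.17.1), and plots were drawn with matplotlib (3.10.9).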

Additional observations from a re-analysis of the deposited data

Results flagged for a closer look

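In 6 of the named genes the METTL3 WT and METTL3 K177Q libraries lay on opposite sides of equal polysome and sub-polysome FPKM, as deposited, with 1 library per condition, so the difference was not tested. MRPL14 had a log2 polysome to sub-polysome ratio of 0.17 in METTL3 WT and -0.44 in METTL3 K177Q cells, a difference of -0.60. MRPL27 had 0.53 and -0.01 (difference -0.54) and MRPS36 0.04 and -0.50 (difference -0.54). MRPS12 had 0.11 and -0.21 (difference -0.32), MRPS33 0.12 and -0.08 (difference -0.21) and AURKAIP1 0.06 and -0.29 (difference -0.35). For MRPS33 the counting error of the difference was 0.367, larger than the difference. The scaling of the libraries sets where 0 lies, and in TPM 4 members in place of 14 were above 0 in METTL3 WT and below 0 in METTL3 K177Q cells.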

How the results depend on the processing

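The scaling of the libraries decided the sign of the members' translation efficiency and sub-polysome medians between genotypes. In TPM the median translation efficiency ratio was 0.051, with 2 members at least 1.5-fold higher (18.6% of all genes) and 0 lower (2.83%). In TPM, too, the METTL3 K177Q to METTL3 WT median was -0.084 in polysome and -0.12 in sub-polysome RNA, and the METTL3 K177Q polysome to sub-polysome median was 0.80, beside 0.068, -0.21 and 0.59 for all genes. With equal totals without cytosolic ribosomal protein genes, the median translation efficiency ratio was -0.011 with 1 member lower (3.03% of all genes), and the sub-polysome median was -0.11 (all genes 0.23 and -0.20). Size factors gave 5 members lower (7.42% of all genes). A 2-fold threshold gave 0 lower, and a pseudocount of 0.01 gave 4, with MRPS25 added. The share of all genes is not given here for that threshold or that pseudocount, so these counts are not set against background. Relative to all genes the translation efficiency median was -0.24, which scaling whole libraries cannot change. The filter does change that position. With a minimum mean of 10 FPKM the translation efficiency median was -0.25 for members and -0.08 for all genes. Under that filter the METTL3 WT polysome to sub-polysome median was 0.54 against 0.27, and the sub-polysome median between genotypes 0.09 against 0.06. Other pseudocounts and filters, and leaving out MRPS36, changed the sign of none of the 5 medians, and under them the translation efficiency median lay between -0.25 and -0.24. In TPM and without cytosolic ribosomal protein genes, 84 of 110 single-gene values moved by more than about 2 counting errors (0.1 on the log2 scale for genes outside the members), against 3 of 377 under the other alternatives. Many of the 377 could not move. The filters and leaving out MRPS36 do not alter a single gene's ratio, and centring shifts every ratio by the same small amount. The 3 were among the 55 values with a pseudocount of 1, so the 377 are no measure of stability. Under all alternatives 0 genes past 1.5-fold changed sign. No paired analysis was possible because only 1 library per condition was analysed. With between 24200000 and 26800000 fragments per library, approximately, counting error was above 0.2 on the log2 scale for the least abundant members, and variation between preparations was not estimated here.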
